A study of Mus musculus with 2 samples.

Results

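The genes described here are the ligands and receptors of the 4 classical axon guidance systems: semaphorins with plexins and neuropilins, ephrins with Eph receptors, Slits with Robo receptors, and netrins with Dcc, Neo1 and Unc5 receptors. They were chosen by symbol, from genes with at least 1 protein-coding transcript, which gave 71 of the 45578 genes in the table. Of these, 34 encode ligands and 35 encode receptors. The symbol rule also took in Unc50, a Golgi membrane protein, and Unc5cl, a death-domain protein, neither of which is a guidance receptor, and both are left out of family sums. Each gene's level is that of the 1 transcript whose counts, added over both libraries, were highest.

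The material was brain of control mice at postnatal day 5 on a congenic FVB background. Their genotype, Smn+/-; SMN2tg/0, combines 1 inactive copy of mouse Smn with a human SMN2 transgene, and both libraries share it. Ribosome footprints of 25 to 35 nucleotides were recovered with RiboLace, in which beads carrying a puromycin analogue pull down ribosomes engaged in translation. The labels give 1 group with 2 biological replicates and no second genotype or tissue. The series text speaks of brain extracts from a mouse. The p-values therefore compare only these 2 libraries. They rest on counting error and hold no estimate of the spread between libraries or animals. No messenger RNA library accompanies the footprints, so a level here holds both the abundance of the transcript and its translation, and in a whole brain fewer cells of a type and less RNA per cell cannot be told apart.

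A growing axon is steered by its growth cone, which reads attractive and repulsive proteins in its surroundings. Semaphorins act through plexins, with neuropilins as co-receptors for the secreted class 3 members. Ephrins are themselves bound to membranes and signal both into the cell that carries the Eph receptor, a tyrosine kinase, and back into their own cell. Slits repel axons through Robo receptors, and netrins attract or repel them depending on whether Dcc or Unc5 receptors are present. In the early postnatal brain the same proteins also serve in cell migration, dendrite growth, synapse formation and the vasculature.

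Replicate 1 held 343552 counts at the gene level and replicate 2 held 120282, a difference in depth of 2.86 times. After TMM scaling 1 count was worth 2.71 CPM (counts scaled to library depth) in replicate 1 and 8.93 CPM in replicate 2, so a member with a few counts in replicate 2 carries a wide error. Markers of neurons, astrocytes and radial glia, the oligodendrocyte lineage, endothelium, erythroid cells, choroid plexus and meninges had a count in both libraries for every listed gene, and microglia had one for 5 of 5 in replicate 1 and 4 of 5 in replicate 2. Of 4 liver genes, Alb and Apoa1 were at 0 in both libraries, Serpina1a had 0 and 1 counts, and Ttr, which the choroid plexus also makes, had 395 and 153. Of 4 muscle genes, Ckm and Tnnt3 were at 0, Myh4 had 2 and 0 counts, and Acta1, whose coding sequence is close to that of other actins, had 70 and 22.

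Footprints of the 71 genes were a small part of each library, and most members were covered thinly. Their 1503 counts in replicate 1 were 0.437% of all gene counts there (0.416 to 0.460, a 95% Wilson interval), and their 435 counts in replicate 2 were 0.362% (0.329 to 0.397). These intervals did not overlap. Of the counts on protein-coding genes alone, the members held 0.538% (0.511 to 0.565) and 0.495% (0.450 to 0.543), with overlapping intervals. All intervals here cover counting error only, since amplified reads that carry no molecular identifier can be copies of 1 molecule. At least 1 count was seen for 65 members in replicate 1 and for 62 in replicate 2, while 3 members, Epha1, Ntn5 and Unc5cl, had none in either. A mean of at least 10 counts over the libraries was reached by 34 of 71 members (47.9%), against 20.1% of the 21874 protein-coding genes in the table. This filter takes no account of length, and the median coding length was 2838 nucleotides for members and 1140 for protein-coding genes. The 34 members past the filter were 14 ligands and 20 receptors. The other 34 members with counts had between 1 and 19 in sum.

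Receptors held more of the footprints than ligands. Their part of guidance counts was 63.9% in replicate 1 (61.5 to 66.3) and 66.7% in replicate 2 (62.2 to 71.0), a mean of 65.3% ± 1.98 (SD, n = 2). A longer coding sequence holds more ribosomes, and the median coding length was 3015 nucleotides for receptors and 2324 for ligands. Divided by coding length, the median density was 13.3 CPM per kilobase for ligands and 12.8 for receptors. Summed per kilobase, ligands held 54.7% of the total, so the order of the 2 roles depended on whether counts were divided by length. The median over all 71 members was 13.1 CPM per kilobase, against 4.61 for all protein-coding genes, and 58 members lay above that value. Over genes with at least 1 count the medians were 15.01 for members and 13.9 for protein-coding genes. Of the members only Efnb3, Sema7a and Neo1 lay above the 90th percentile of coding genes, 69.1 CPM per kilobase.

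**Figure D1:**
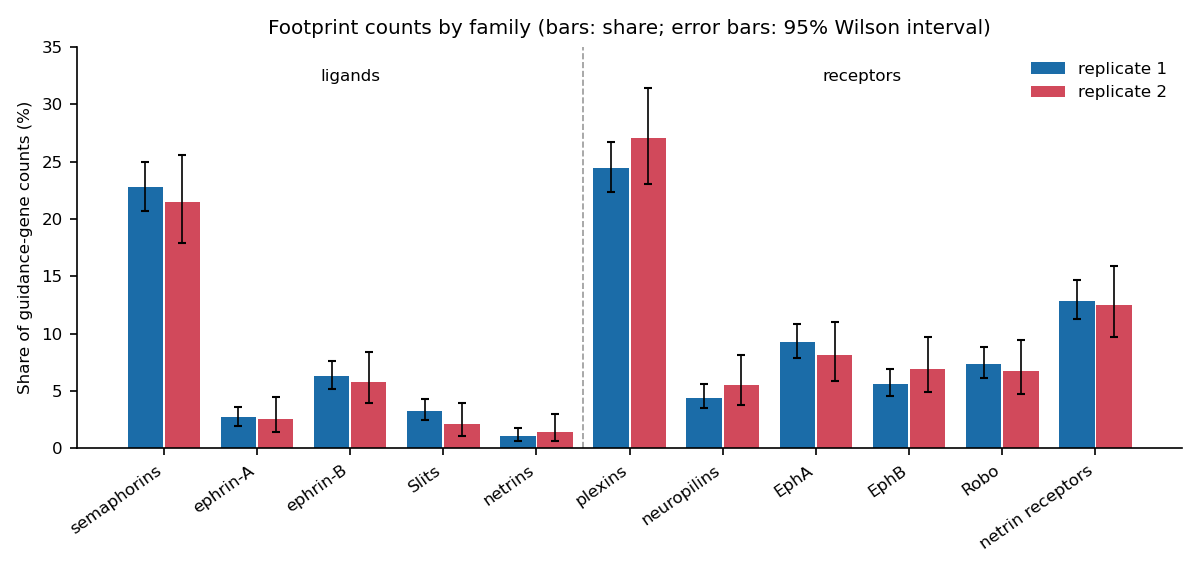
Share of guidance-gene counts held by each family in replicate 1 (blue) and replicate 2 (red), in percent, with 95% Wilson intervals as error bars; ligand families stand left of the dashed line and receptor families right of it. Plexins (24.5% and 27.0%) and semaphorins (22.7% and 21.5%) held the most, and netrins the least (1.07% and 1.39%). Counts were not divided by length. The intervals of the replicates overlapped in every family.

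By family, plexins held 25.8% ± 1.80 of guidance counts and semaphorins 22.1% ± 0.894 (each SD, n = 2), and these were the largest shares. The shares are of counts not divided by length. Per kilobase of coding sequence the order changed, to 23.9% for semaphorins, 16.5% for B-class ephrins and 12.8% for plexins. The netrin receptors followed with 12.7% ± 0.263, most of it from 1 gene, Neo1. EphA receptors held 8.66% ± 0.811, Robo receptors 7.03% ± 0.467, EphB receptors 6.27% ± 0.926 and B-class ephrins 6.03% ± 0.363 (each SD, n = 2). Neuropilins held 4.98% ± 0.798, Slits 2.68% ± 0.848, A-class ephrins 2.61% ± 0.096 and netrins 1.23% ± 0.223 (each SD, n = 2). In each of the 11 families the Wilson intervals of the libraries overlapped.

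The 20 semaphorins ranged from 1.16 to 96.3 CPM per kilobase of coding sequence. Sema7a, the glycolipid-anchored member that binds integrins and plexin C1, had 66 counts in replicate 1 and 23 in replicate 2. That was 179 and 205 CPM, or 192 CPM ± 18.8 (SD, n = 2), and it made up 22.1% ± 3.76 of all semaphorin counts. No other semaphorin exceeded 39 counts in sum. Per kilobase of coding sequence Sema7a stood at 96.3 CPM ± 9.40 (SD, n = 2), and its counting interval lay above that of each of the other 19 semaphorins.

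The secreted class 3 semaphorins, the best known repellents of cortical and sensory axons, were low. All 7 together had 44 counts in replicate 1 and 6 in replicate 2, which was 12.9% (9.78 to 16.9) and 6.45% (2.99 to 13.4) of semaphorin counts. None of the 7 reached the count filter. Sema3c was the highest with 18 counts in replicate 1 and 0 in replicate 2, where a count of 0 allows up to 3 counts or 26.8 CPM. Set against the 18 counts taken as they stand, that limit lay 1.82-fold lower. The fold holds no counting error of the 18, and Sema3c was not in the main test between the libraries. Sema3e, a ligand of plexin D1, had 8 and 1 counts, Sema3a, the founding collapsin, 7 and 1, and Sema3f, the neuropilin 2 ligand, 5 and 2.

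The membrane-spanning classes 4 and 6 carried most of the remaining semaphorin footprints. Class 4 held 29.7% of them (25.1 to 34.8) in replicate 1 and 29.0% (20.8 to 38.9) in replicate 2. Sema4b had 27 and 6 counts, Sema4g 24 and 7, Sema4c 15 and 5, and Sema4f 13 and 7. Sema4d, a ligand of plexin B1, stayed under the filter with 10 and 2, and Sema4a had 12 and 0. In class 6, whose members bind A-type plexins directly, Sema6a had 34 and 5 counts, Sema6b 30 and 5, and Sema6d 21 and 4. The class 6 share was 28.8% (24.3 to 33.9) and 18.3% (11.7 to 27.3). Class 5, whose members carry thrombospondin repeats, was the exception to the overlap: its share was 9.12% (6.50 to 12.7) in replicate 1 and 21.5% (14.4 to 30.9) in replicate 2, with intervals that did not meet. Sema5a had 24 and 12 counts and Sema5b 7 and 8, so the higher share in replicate 2 came from both genes. It was the 1 share among those of families, classes and single genes in their family whose intervals lay apart, and it was not tested further.

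Of the 9 plexins 8 passed the filter. The 4 A-type plexins, which pair with neuropilins and class 6 semaphorins, took 65.3% of plexin counts in replicate 1 (60.3 to 70.0) and 70.1% in replicate 2 (61.3 to 77.6). Plxna1 led with 107 and 36 counts, 306 CPM ± 22.3 (SD, n = 2). Plxna4 had 68 and 18 counts, Plxna2 38 and 17, and Plxna3 26 and 11. In the B group Plxnb2 had 44 and 8 counts and Plxnb1 18 and 11, while Plxnb3 had 5 and 0 and was the plexin under the filter. Plxnd1, known from endothelium and from axons that respond to Sema3e, had 40 and 9 counts, and Plxnc1, the Sema7a receptor, 20 and 7. The plexins have similar coding lengths, so the order per kilobase was close to the order by count: 53.8 CPM per kilobase ± 3.92 for Plxna1, 30.4 ± 2.93 for Plxna4 and 22.4 ± 6.07 for Plxna2 (each SD, n = 2). The counting interval of Plxna1, 44.1 to 61.6, lay above that of Plxna4, 25.2 to 38.9, and those of Plxna4 and Plxna2 overlapped.

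Both neuropilins passed the filter, at similar levels on their highest transcript. Nrp1, which also binds vascular endothelial growth factor, had 40 and 12 counts, or 108 and 107 CPM. Nrp2 had 26 and 12 counts, or 70.5 and 107 CPM. Per kilobase they stood at 38.9 ± 0.317 and 32.4 ± 9.45 CPM (SD, n = 2), a difference within the spread of Nrp2. Nrp1 has 1 annotated transcript and Nrp2 has 7. With a correction for that number, described with the transcripts, the order reversed. Nrp1 then stood at 38.9 (29.1 to 51.1) and Nrp2 at 57.2 (36.0 to 69.8), with overlapping intervals.

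**Figure D2:**
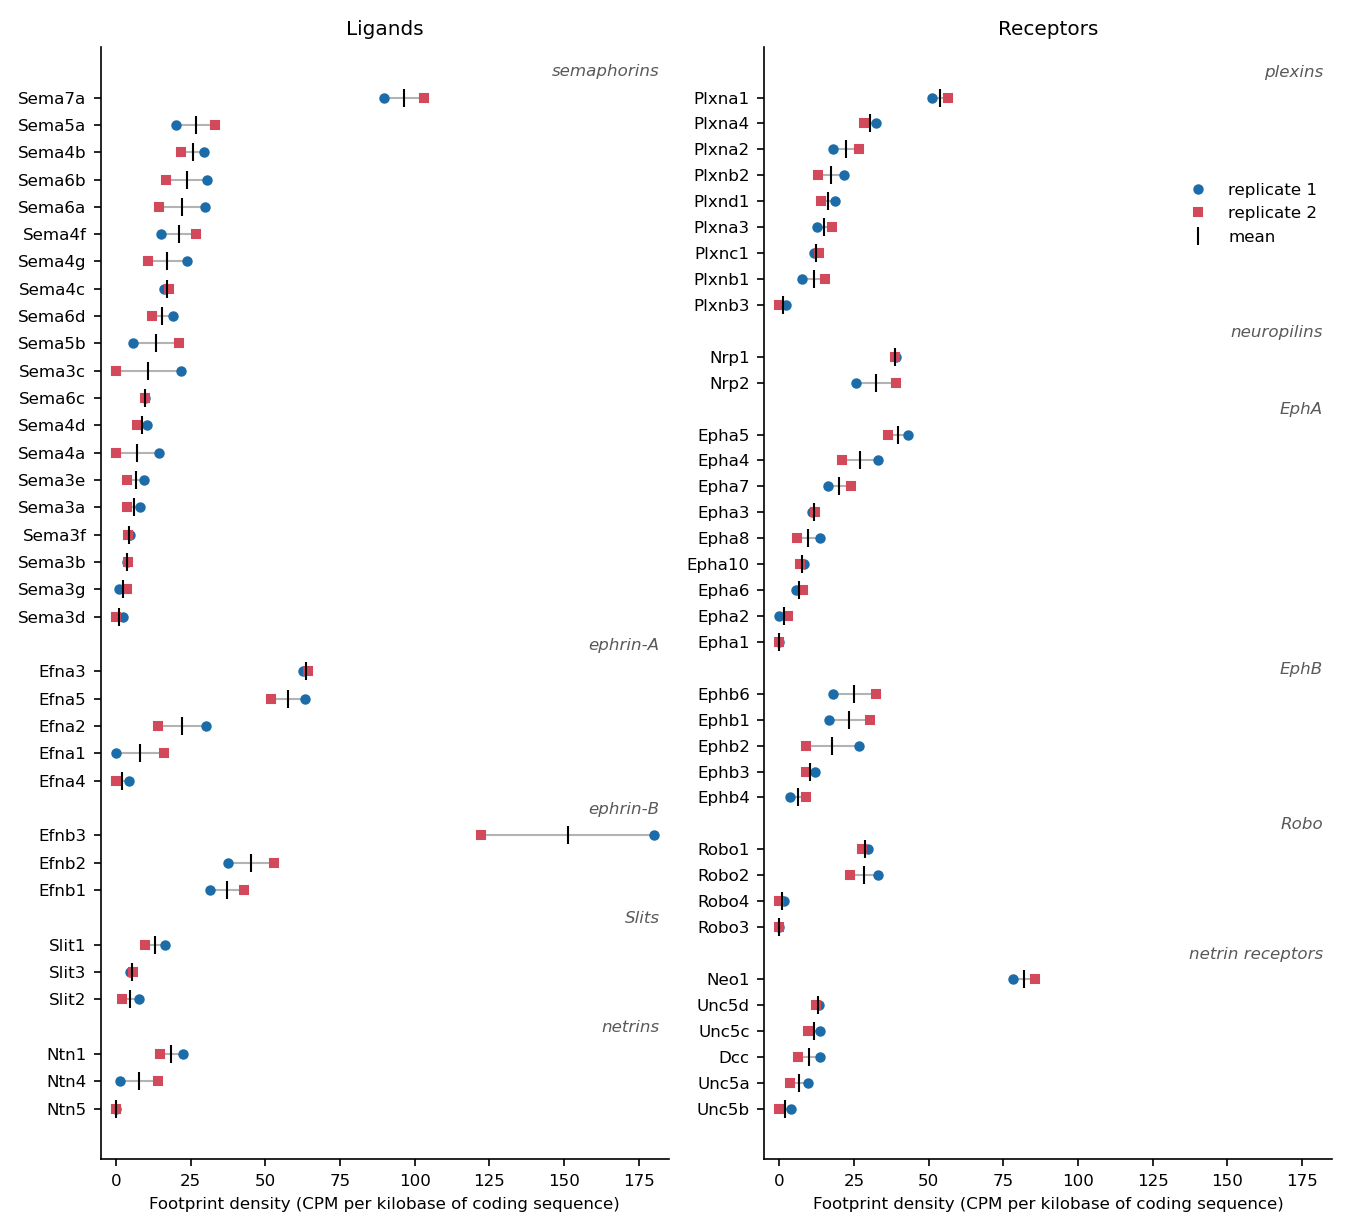
Footprint density of each ligand (left) and receptor (right) in CPM per kilobase of coding sequence, ordered within its family by the mean; circles are replicate 1, squares replicate 2 and bars their mean. Efnb3 lay farthest right (180 and 122), followed by Sema7a (89.7 and 103) and Neo1 (78.1 and 85.7), while most members lay under 30.

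Ephrins have short coding sequences, and the B-class members, Efna3 and Efna5 stood among the 10 highest members per kilobase. Efna1 and Efna4, also short, stood at 8.09 and 2.18 CPM per kilobase. Efnb3, the B-class ephrin known as the midline barrier of corticospinal axons, had 68 and 14 counts, 184 and 125 CPM. With a coding sequence of 1023 nucleotides this gave 180 and 122 CPM per kilobase, a mean of 151 ± 41.0 (SD, n = 2), the highest of all 71 members in both libraries. Its counting interval of 133 to 207 did not reach that of any other member. Efnb2, known from arteries and neural progenitors, had 14 and 6 counts, and Efnb1, under the filter, 12 and 5, or 45.3 ± 10.9 and 37.2 ± 8.26 CPM per kilobase (SD, n = 2).

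Of the 5 A-class ephrins, which are tethered by a glycolipid anchor, Efna3 and Efna5 passed the filter. Efna3 had 16 and 5 counts and Efna5, known from the map of retinal axons in the colliculus, 16 and 4. Their densities were 63.5 ± 1.32 and 57.6 ± 7.86 CPM per kilobase (SD, n = 2), ranks 4 and 5 among the members, with overlapping counting intervals. Efna2 had 7 and 1 counts, and Efna1 and Efna4 had 1 count each over both libraries.

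Eph receptors were led by Epha5 and Epha4. Epha5 had 39 and 10 counts, 97.5 CPM ± 11.6 (SD, n = 2). Epha4, which binds both classes of ephrin, had 39 and 5 counts, 106 and 44.6 CPM, on a transcript annotated for nonsense-mediated decay. On its leading protein-coding transcript Epha4 had 36 and 7 counts, or 32.9 and 21.1 CPM per kilobase, a narrower gap between the libraries. Epha7 had 18 and 8 counts. The remaining EphA genes were under the filter: Epha8 had 15 and 2 counts, Epha3 12 and 4, Epha6 7 and 3, Epha10 8 and 2, Epha2 0 and 1, and Epha1 none. A count of 0 allows Epha1 up to 8.13 CPM in replicate 1 and 26.8 CPM in replicate 2.

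Among the EphB receptors Ephb2, Ephb6 and Ephb1 passed the filter at near-equal sums. Ephb2, a receptor of excitatory synapses as well as of axons, had 29 and 3 counts. Ephb6, whose kinase domain is inactive, had 20 and 11, and Ephb1 18 and 10. Ephb2 was therefore the highest of the family in replicate 1, with 34.5% of EphB counts (25.2 to 45.2), and the lowest of these 3 in replicate 2, with 3 of 30 (3.46 to 25.6 in percent). The intervals just met. Ephb3 had 13 and 3 counts and Ephb4, known from veins, 4 and 3.

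Slits had a lower footprint density than Robo1 and Robo2. Slit1, the member most restricted to the nervous system, had 28 and 5 counts and was the 1 Slit past the filter. Slit2 had 13 and 1 counts and Slit3 8 and 3. Robo1 had 53 and 15 counts and Robo2 55 and 12, or 139 CPM ± 6.85 and 128 CPM ± 29.6 (each SD, n = 2), and the pair took 98.2% and 93.1% of the counts of the 4 Robo genes. Robo3, a receptor of commissural axons before they cross the midline, had 0 counts in replicate 1 and 1 in replicate 2, and Robo4, known from endothelium, 2 and 1. Their highest counts lay on transcripts annotated as retained introns. Per kilobase Robo1 stood at 28.7 ± 1.41 CPM and Robo2 at 28.3 ± 6.54, against 13.1 ± 4.80 for Slit1, 5.30 ± 0.790 for Slit3 and 4.80 ± 4.04 for Slit2 (each SD, n = 2). In each of the 6 pairings of a Slit with Robo1 or Robo2 the receptor was higher in both libraries, and the counting intervals did not overlap. With a correction for the number of transcripts, described with the transcripts, the receptor was still higher in both libraries in all 6, but the intervals of Slit1 (15.6 to 31.9) and Slit2 (11.03 to 33.8) then overlapped that of Robo1 (22.7 to 37.0).

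Netrins were the smallest family, with 16 and 6 counts. Ntn1, the main netrin of the nervous system, had 15 and 3 counts, Ntn4, a laminin-binding netrin of basement membranes, 1 and 3, and Ntn5 none. Their receptors were uneven. Neo1, or neogenin, which binds repulsive guidance molecules as well as netrins, had 129 and 43 counts, the highest of all members: 350 and 384 CPM, or 367 ± 24.3 (SD, n = 2). It alone made up 67.2% of netrin-receptor counts in replicate 1 (60.3 to 73.4) and 79.6% in replicate 2 (67.1 to 88.2). Dcc, its close relative and the classical attractive netrin receptor, had 22 and 3 counts, so that per kilobase Neo1 stood at 81.9 ± 5.43 CPM and Dcc at 9.95 ± 5.34 (each SD, n = 2). Their counting intervals, 68.4 to 92.7 and 7.74 to 17.7, lay far apart. None of the 4 Unc5 receptors, which turn the response to netrin into repulsion, passed the filter: Unc5d had 14 and 4 counts, Unc5c 14 and 3, Unc5a 9 and 1, and Unc5b 4 and 0.

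Set side by side per kilobase, ligands and receptors of a textbook pair did not follow one rule. Of 19 pairs the receptor was higher in both libraries in 11, the ligand in 6, and 2 were mixed. The 11 include the 6 pairings of a Slit with Robo1 or Robo2, and no ephrin was paired with an Eph receptor. The 6 with a higher ligand were Ntn1 against Dcc and each Unc5 receptor, and Sema7a against Plxnc1. They rest on Ntn1, with 15 and 3 counts, and on Sema7a, so the pairs are not separate cases. Summed per kilobase over the family, B-class ephrins stood at 234 CPM and EphB receptors at 82.9 (means of both libraries). For A-class ephrins and EphA receptors the sums were 153 and 124. This A-class order held per kilobase of coding sequence only. Per kilobase of the whole transcript it reversed, with Efna3 at 18.6 CPM and Efna5 at 9.81 beside Epha5 at 18.9. With the correction for the number of transcripts the A-class ephrins were no longer the higher. Among the 19 pairs the counting intervals lay apart in 9 of the 11 with a higher receptor and in 2 of the 6 with a higher ligand. With the same correction the 9 became 7, and Sema6a against Plxna4 became mixed. Besides the Slit pairs, the receptor exceeded its ligand for Nrp1 against Sema3a, 39.1 and 38.7 against 8.18 and 3.85 CPM per kilobase, for Nrp2 against Sema3f and for Neo1 against Ntn1. The reverse held for Sema7a against Plxnc1, 89.7 and 103 against 11.5 and 13.2 CPM per kilobase, and for Ntn1 against Unc5b. Ntn1, at 22.4 and 14.8, lay above Dcc, at 13.7 and 6.17, in both libraries, but their counting intervals overlapped.

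The order of members per coding length was resolved for few genes and changed with how transcripts were counted. Of the 10 highest in each library 8 were shared. Among the 70 pairs of neighbours in that order, the counting intervals lay apart in 1, that of Efnb3 and Sema7a. Sema7a and Neo1 each lay wholly above 66 of the other members, and Plxna1 above 59. The length chosen mattered at the top. The counts cover whole transcripts, and the table does not say how many fell in untranslated regions. Per kilobase of the whole transcript, Sema7a came first at 58.3 ± 5.69 CPM, followed by Neo1 at 49.7 ± 3.29 and Efnb3 at 48.6 ± 13.2 (each SD, n = 2), while Efna5, with a 3' untranslated region of 3158 nucleotides, dropped from rank 5 to rank 29. With the counts of all transcripts of a gene summed, which repeats shared fragments in genes with many transcripts, Epha5 took rank 1, Efnb3 rank 2, Epha4 rank 3 and Sema6a rank 4, while Sema7a stood at rank 12 and Neo1 at rank 13.

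**Figure D3:**
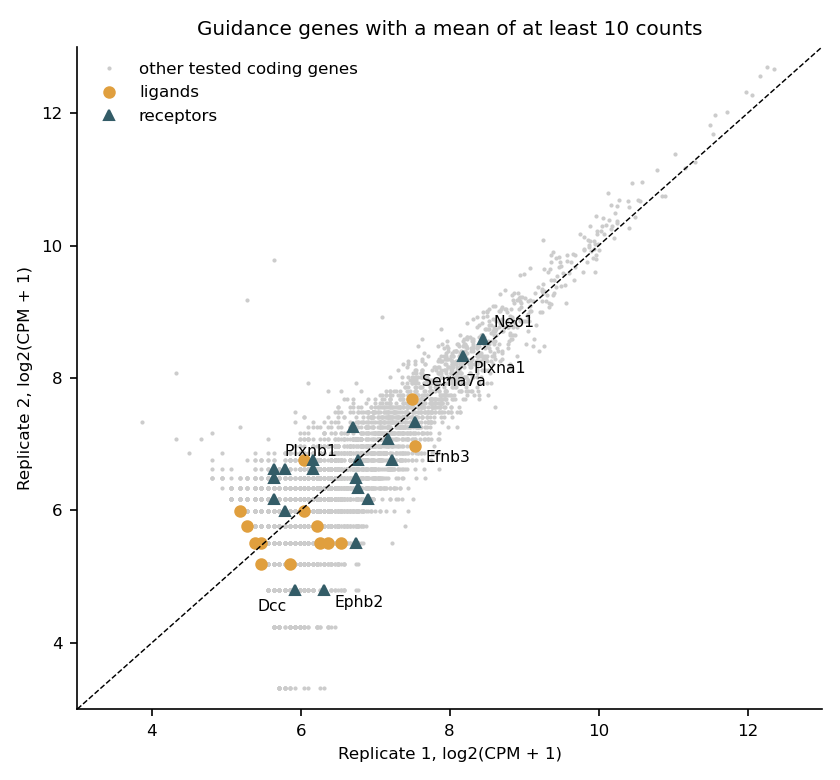
Level of each tested ligand (circles) and receptor (triangles) in replicate 1 (x) and replicate 2 (y), as log2(CPM + 1), over the other tested protein-coding genes in grey; the dashed line marks equal levels. The 34 members straddle the line, with 16 above it and 18 below, and Ephb2 (29 and 3 counts) and Plxnb1 (18 and 11) lie among the farthest from it.

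Between the libraries, none of the 34 members with a mean of at least 10 counts differed by the exact binomial test with Benjamini-Hochberg adjustment over all 5436 genes tested at 0.05. Over all tested genes 4.14% were called, 3.99% higher and 0.147% lower in replicate 2, and over the 4392 tested coding genes 0.956%. At an unadjusted p under 0.05 the count was also 0 of 34, against 9.60% of all tested genes and 5.62% of coding genes. The edgeR exact test with a preset coefficient of variation of 0.2 called 0 of 34 as well. The test compares the reads of these 2 libraries and not conditions, and at 20 to 172 counts per member a difference can be missed. Of the 34, 16 were higher and 18 lower in replicate 2, and the median log2 ratio of replicate 2 over replicate 1 was -0.04 on the log2(CPM + 1) scale, against 0.0041 for all tested genes.

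The lowest ratios belonged to genes with 3 to 5 counts in replicate 2. Ephb2 had a log2 ratio of -1.52 (counting SE 0.875), Epha4 one of -1.22 (SE 0.685), Dcc one of -1.13 (SE 0.888) and Sema6a one of -1.03 (SE 0.691). At the other end stood Plxnb1 with 1.00 (SE 0.552), Ephb1 with 0.86 (SE 0.569), Ephb6 with 0.85 (SE 0.542) and Sema4f with 0.81 (SE 0.676). The smallest adjusted exact binomial p of any member was 0.626, that of Epha4. Among the members with the most counts the log2 ratio was 0.14 (SE 0.254) for Neo1, 0.15 (SE 0.278) for Plxna1, 0.20 (SE 0.349) for Sema7a and -0.56 (SE 0.423) for Efnb3.

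The 71 genes had 364 annotated transcripts, from 1 in 14 genes to 23 in Slit2, and counts were given for each. Protein-coding transcripts held 82.5% of these transcript counts in replicate 1 and 83.8% in replicate 2, retained-intron transcripts 9.82% and 9.32%, and transcripts annotated for nonsense-mediated decay 5.39% and 3.98%. Since these forms share exons with the coding ones, a count on them does not show that they were translated. Epha4, Sema3f, Sema4g and Sema6c had their highest count on a transcript annotated for decay. In Epha4 that was Epha4-003 with 39 and 5 counts, annotated with a reading frame of 117 nucleotides in 3043, beside 36 and 7 on the coding Epha4-201. In Sema6c it was 13 and 3 beside 10 and 3.

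**Figure D4:**
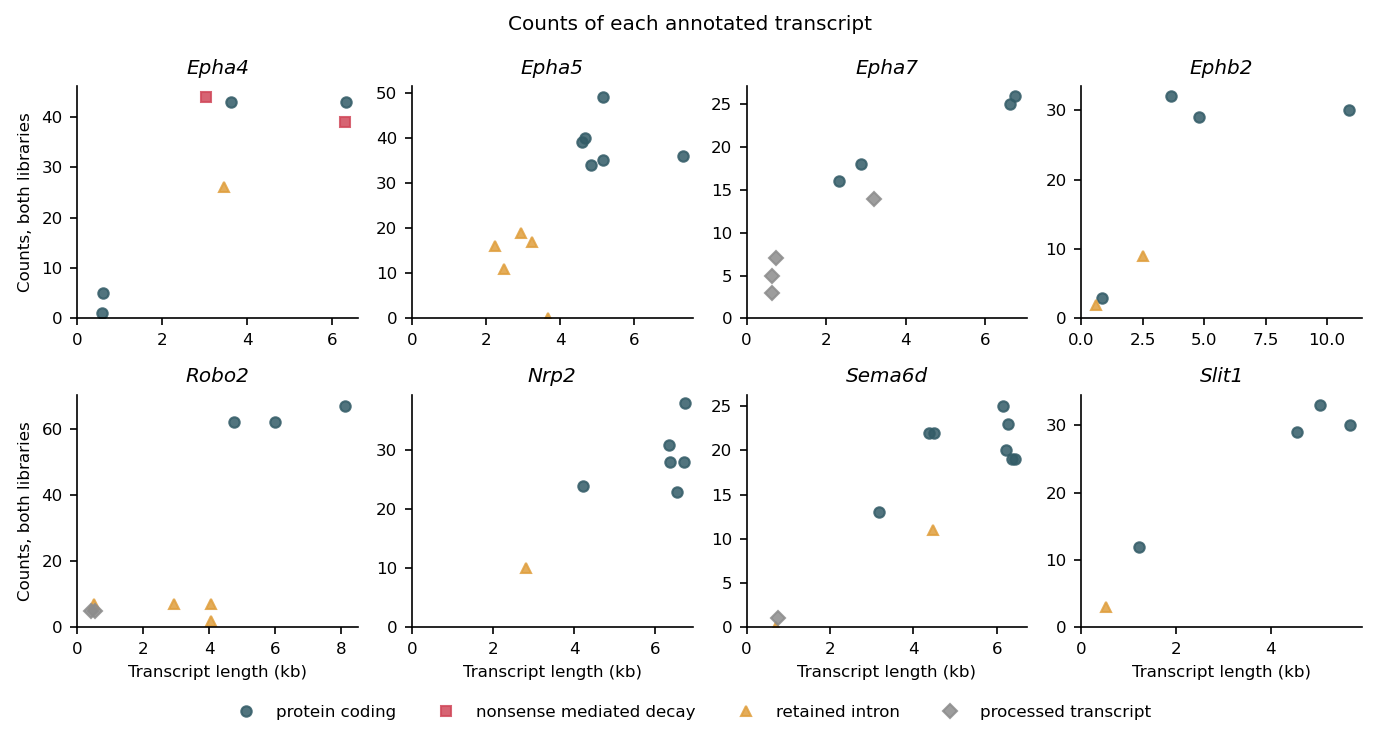
Counts over both libraries (y) against transcript length in kilobases (x) for every annotated transcript of 8 members, marked by annotated class. The 3 long coding transcripts of Ephb2 lie together at 29 to 32 counts, and retained-intron transcripts lie below the highest coding one in each gene; in Epha4 a transcript annotated for decay is highest, at 44.

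Transcripts of a gene with the same coding length but a longer 3' untranslated region had more counts in sum in 3 of 5 pairs, fewer in 1 and equal in 1. Ephb2-003, with 676 nucleotides of 3' untranslated region, had 29 and 3 counts, and Ephb2-002, with 1714, had 25 and 4. Epha4-001 had 35 and 8 counts, and Epha4-201, longer by 2716 nucleotides, 36 and 7. Slit1-004 had 25 and 4, and Slit1-002, longer by 1117 nucleotides, 24 and 6. The widest gap was that of Plxna1: Plxna1-202, longer by 3007 nucleotides in the 3' and with a 5' region of 280 in place of 72, had 107 and 36 counts against 92 and 26. Over the 5 such pairs the longer forms had 199 and 54 counts and the shorter 184 and 42.

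Some transcripts with a much shorter coding sequence had fewer counts, but not all. The lowest sum of a coding transcript was 2 beside a highest of 49 in Plxnd1 and 1 beside 29 in Plxnb1. It was 2 beside 39 in Sema6a, 0 beside 31 in Ephb6, 1 beside 43 in Epha4 and 3 beside 32 in Ephb2. These lowest forms had coding sequences of 140 to 828 nucleotides. Epha7-002 and Epha7-003, whose coding sequences of 1833 and 1881 nucleotides are shorter than the 2997 of Epha7-001, had 12 and 6 and 9 and 7 counts beside 18 and 8. Ephb1-002, with 1371 of 2955 coding nucleotides, had 14 and 5 beside 18 and 10. Slit1-003, with 1142 of 4596, had 12 and 0 beside 28 and 5. In contrast, Epha10-001, with 879 nucleotides, had 9 and 1 counts beside the 8 and 2 of Epha10-002, with 2588. Epha5-002, with 2460, had 39 and 10 beside the 32 and 8 of Epha5-006, with 3123. For Dcc the 2 coding forms, of 4344 and 4284 nucleotides, had 22 and 3 and 20 and 5 counts. The counts do not separate fragments in shared exons from fragments in exons of 1 form, so the use of a short form cannot be read from them.

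**Figure D5:**
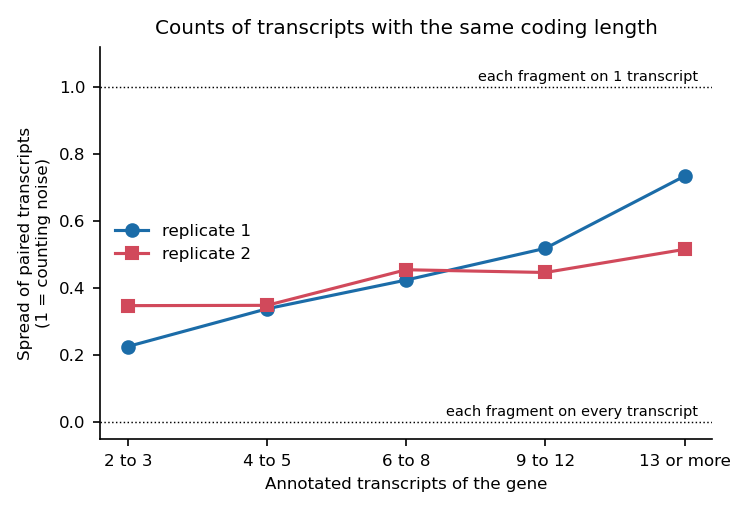
Squared difference over the sum of the counts of paired transcripts of a gene, averaged over pairs (y), by the number of annotated transcripts of the gene (x), for replicate 1 (circles) and replicate 2 (squares). The value would be 0 if every fragment were counted on both transcripts and 1 if each fragment were placed on 1 of them at random; it rose from 0.226 and 0.348 with 2 to 3 transcripts to 0.735 and 0.516 with 13 or more.

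How fragments were shared between transcripts bears on every level given here. Nearly identical transcripts did not have identical counts: Nrp2-006 (6723 nucleotides) had 26 and 12 counts and Nrp2-001 (6708 nucleotides) 22 and 6. Over all genes, pairs of coding transcripts with equal coding length and a total length within 50 nucleotides were compared, 1 pair per gene with at least 10 counts in sum. The squared difference over the sum averaged 0.450 over 371 pairs in replicate 1 and 0.416 over 166 pairs in replicate 2, between the 0 of counting each fragment on every transcript and the 1 of placing it on 1. With 2 to 3 transcripts per gene it was 0.226 and 0.348, and with 13 or more 0.735 and 0.516. If each fragment falls on each matching transcript independently, 1 minus this ratio is the part of a gene's fragments that 1 transcript holds. Genes with 1 transcript, such as Efnb3, Sema7a, Neo1, Nrp1 and Robo1, then keep all of theirs, while Epha5 (11 transcripts), Robo2 (9), Nrp2 (7), Epha4 (7) and Slit2 (23) are understated beside them. Dividing each density by that share, averaged over the pairs of both libraries by the number of transcripts, kept Efnb3 and Sema7a first and second, placed Efna3 above Neo1, moved Epha5 from rank 8 to 6, Nrp2 from 11 to 9 and Robo2 from 14 to 10, and gave Epha4 rank 12 in place of 15. Genes with 1 transcript fell: Robo1 from rank 13 to 30, Sema5a from 16 to 32 and Nrp1 from 9 to 16. Robo1 and Robo2, near equal without the correction, then stood at 28.7 and 56.3 CPM per kilobase, with intervals of 22.7 to 37.0 and 47.4 to 77.7. These are counting intervals divided by the share, and they hold no error of the share itself. The share follows the number of annotated transcripts and not the counts of a gene's own forms. Robo2-001 had 55 and 12 counts, and Robo2-004 and Robo2-002 each had 51 and 11. The gap between Robo1 and Robo2 therefore rests on the correction and was not tested. The ratio with 13 or more transcripts also differed between the libraries, and its part in the library comparison of such genes was not tested.

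Other genes of axon guidance were taken from a list of 73 co-factors, secreted and surface proteins, adhesion molecules and intracellular effectors. All 73 were matched, 68 had a count in both libraries and 50 passed the filter. By CPM, which sets whole genes side by side without regard to length, the highest were Dpysl2, a collapsin response mediator downstream of Sema3a, at 2386 ± 415, Dpysl3 at 1413 ± 40.7, the actin-severing Cfl1 at 1356 ± 293, Crmp1 at 1235 ± 148, the proteoglycan core protein Ncan at 1188 ± 50.7 and the growth cone protein Gap43 at 1102 ± 133 (each SD, n = 2). Of the 50, 2 were called between the libraries, both higher in replicate 2, against 4.14% of all tested genes and 0.956% of coding genes. They were Dpysl2 with 772 and 300 counts (log2 ratio 0.36, adjusted exact binomial p = 0.0102) and Cfl1 with 424 and 175 (0.44, adjusted exact binomial p = 0.0232). Both calls were lost with library totals, with the preset coefficient of variation and with a filter of 1 count in each library. The median log2 ratio of the 50 was 0.073.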

How the data were processed

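The 2 RiboLace footprint libraries, from control mouse brain at postnatal day 5, were analysed. The authors deposited 1 table of whole-number counts per Ensembl transcript and replicate, not normalised, with transcript, coding and untranslated lengths in nucleotides. The submitters' processing notes name Trimmomatic 0.36, Bowtie2 2.2.6, SAMtools and GRCm38.p4, without their roles. The counting tool, annotation release and treatment of fragments that match several transcripts are not given in the sources used here. Columns were assigned to replicates from the number, control and RiboLace in their names, and 0 other sample columns were present. The members and lists were chosen with earlier results of these data known. All 71 member identifiers were in the name table with the same symbol.

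A gene took the count of its transcript with the highest sum, the longer in a tie. CPM used effective library sizes from edgeR 4.0.16 (TMM factors 1.07 and 0.931, over genes whose counts averaged 10 or more). Levels per kilobase used the protein-coding transcript with the highest sum, and their counting intervals are exact 95% Poisson intervals of the count pooled over both libraries. A 2-sided exact binomial test per gene, adjusted by Benjamini-Hochberg over all genes past the filter at 0.05, compared the libraries. It was tested on simulated data. Log2 ratios used a pseudocount of 1 CPM and their counting SE the counts alone. Shares have 95% Wilson intervals. For a count of 0, the upper limit is 3 counts per library. Members with a mean of at least 10 counts were named with both counts. For the rest, those at 0 and up to 4 examples a family were named, and others were added after their values were seen. Of the other guidance genes the 6 highest and those called were named. Isoforms beyond those whose sums differ by at least 20 were chosen after their values were seen. Alternatives were other filters, scalings (DESeq2 1.42.0 size factors, totals, coding genes alone), gene rules (isoforms summed, longest coding sequence), a preset dispersion, a pseudocount of 0.1, other lengths and single libraries. Fragments shared between paralogs could not be separated. No sequence or genomic coordinate was used.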

Additional observations from a re-analysis of the deposited data

How the results depend on the processing

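No paired analysis was possible because the labels hold a single group. Levels and splits rest on at most 172 counts per gene, and the depth of replicate 2 limits most of them. Unless a construction is named, the cause was not tested.

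The 34 members past the filter became 59 with at least 1 count in each library and 2 with a mean filter of 50, and ranged from 16 to 46 across the fits without replicate 1 or replicate 2. The 0 of 34 members called became 5 of 50 with isoforms summed, against 7.23% of the 8366 genes then tested. Of those 605 called genes, 222 were lower in replicate 2. All 5 members were lower: Epha4 with a log2 ratio of -0.84, Sema6d with -1.33, Sema4a with -2.38 and Slit2 with -2.07. Sema3c had 37 counts against 0. The adjusted exact binomial p ran from 0.0014 to 0.0437. A sum counts part of the fragments several times, and the test then takes them as independent. The 225 genes called over all became 75 with a mean filter of 50, 22 among coding genes alone, 605 with isoforms summed and 131 with the preset coefficient of variation. The 2 other guidance genes called became 0 with at least 1 count in each library, 0 with library totals, 1 among coding genes alone (Dpysl2), 5 with isoforms summed and 0 with the preset coefficient of variation. With library totals the median ratio (log2) over all genes tested moved from 0.0041 to -0.20. The members then split into 10 higher and 24 lower in replicate 2, with 2 of 34 at an unadjusted exact binomial p under 0.05. The share of all tested genes at that p under library totals is not given here, so the 2 have no background.

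With isoforms summed, families with many transcripts gained by construction. The ligand share became 37.3%, semaphorins 27.0%, A-class ephrins 1.91%, B-class ephrins 3.09%, Slits 4.20%, plexins 18.5%, neuropilins 5.86%, EphA 16.1%, EphB 7.28% and netrin receptors 8.03%. Per kilobase of coding sequence short genes gained: the ligand share became 54.7%, semaphorins 23.9%, A-class ephrins 10.8%, B-class ephrins 16.5%, Slits 1.63%, netrins 1.87%, plexins 12.8%, Robo 4.07% and netrin receptors 8.80%. The median log2 ratio of the members lay between -0.26 and 0.07. The 8 genes shared among the 10 highest became 6 per kilobase of transcript or with isoforms summed, and 7 when divided by the retained share, an alternative chosen after seeing the data. The latter left 7 of 9 pairs with the receptor higher and the intervals apart.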
